A study of Arabidopsis thaliana with 6 samples.

Results

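The cytochrome P450 genes described here are 20 Arabidopsis thaliana genes read by 20 probe sets, out of 22746 probe sets tested. They were chosen by name: the array annotation gave the probe set to a single gene, the RefSeq symbol was CYP followed by a family number, subfamily letters and a member number, and the RefSeq gene type was protein coding. RefSeq lists 219 genes of this kind, and the 199 without a single-gene probe set were not analysed here. The 20 genes fall in 4 families. CYP71 holds 17 of them, all in subfamily CYP71B, which has 32 genes of this kind in RefSeq, and CYP78, CYP79 and CYP84 hold 1 each. All 20 probe sets carry the plain _at suffix, which marks probes designed against a single transcript.

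RNA came from unopened flower buds of ddm1 plants of inbred generation 6 and of wild type plants of the Columbia accession (Col), with 3 biological replicates and 3 arrays per genotype. Growth was on soil, with 18 hours of light per day and a temperature of 23 °C for both genotypes. The labels give no ddm1 allele, no generation for the wild type plants and no count of plants behind a replicate, so loss of DDM1 and the inbreeding of the ddm1 line cannot be told apart. DDM1 itself was not analysed here, and the mutated gene therefore gives no check of the labels.

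Cytochrome P450 enzymes are heme proteins that insert an oxygen atom into small molecules with electrons passed on from NADPH by a reductase. Plants use them to make and break down hormones, pigments, wall precursors and defence compounds, and the number in a gene's name gives its family by sequence similarity. The CYP71B subfamily has expanded in Arabidopsis partly as runs of neighbouring genes, and its best known member, PAD3, makes the defence compound camalexin. DDM1 is a chromatin remodelling protein that keeps transposable elements methylated and silent.

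Values are the authors' log2 expression values, given relative to a baseline of each probe set. A value near 0 therefore means near that baseline, not absence of the transcript, and levels cannot be compared between genes. Differences are ddm1 minus wild type on the log2 scale with their standard error (SE), estimated by limma over all probe sets, n = 3 arrays per genotype. A gene was called where limma gave a p under 0.05 after Benjamini-Hochberg adjustment over all 22746 probe sets.

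In ddm1 buds CYP71B22 and CYP71B28 rose, CYP71B37 fell, and the other 17 P450 genes were not called. The 2 higher genes compare with 3.5% of all probe sets called higher, and the 1 lower gene with 5.68% called lower. Among the 12443 protein-coding single-gene probe sets the shares were 2.23% and 5.51%. With 3 calls among 20 genes (15%, against 9.17% of all probe sets in either direction), whether the P450 genes differ from the rest of the array in this was not tested. The median difference of the 20 genes was 0.025, against 0.0045 over all probe sets, and 1 gene, CYP71B22, differed at least 2-fold. In whole buds, a change in the share of cells that express a gene and a change in RNA per cell cannot be told apart.

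**Figure D1:**
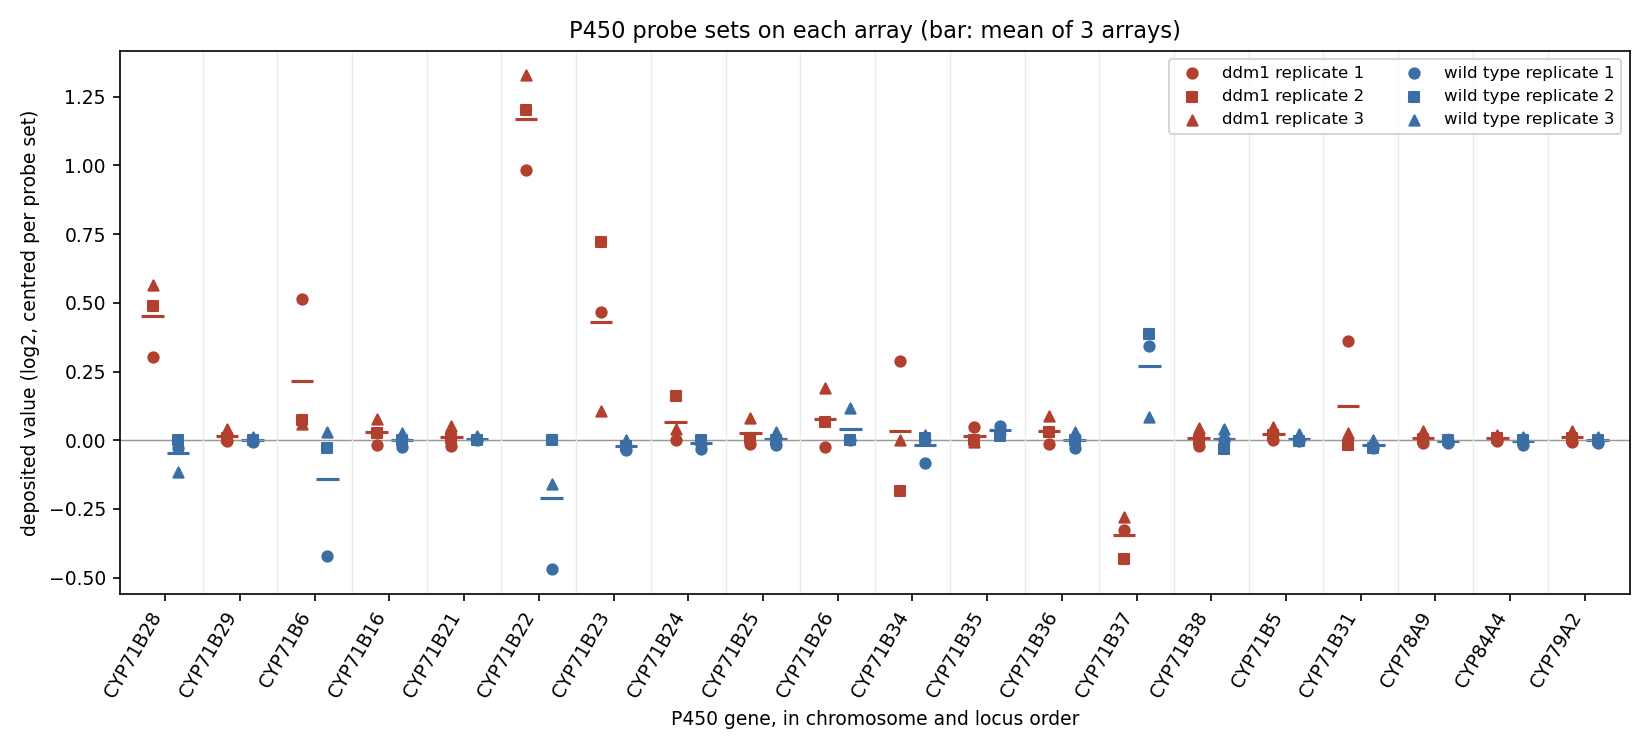
Deposited log2 values, centred per probe set, of the 20 P450 genes on each of the 6 arrays, with ddm1 in red on the left and wild type in blue on the right of each gene, and the mean of 3 arrays as a bar. CYP71B22, CYP71B28 and CYP71B37 part the genotypes by at least 0.30, while 12 genes vary by under 0.2 over all arrays.

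CYP71B22 showed the largest difference of the 20. Its values were 0.98, 1.20 and 1.33 in ddm1 replicates 1, 2 and 3, against -0.47, 0 and -0.16 in wild type replicates 1, 2 and 3. The groups did not overlap, and the lowest ddm1 array lay 0.98 above the highest wild type array. The difference was 1.38 ± 0.15 SE, or 2.60-fold (95% interval 2.01 to 3.37, limma adjusted p = 0.00587). By size of difference CYP71B22 ranked 659 among the 22746 probe sets.

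CYP71B37 was the only P450 gene called lower in this fit. Its values were -0.33, -0.43 and -0.28 in ddm1 replicates 1, 2 and 3, against 0.34, 0.39 and 0.085 in wild type replicates 1, 2 and 3. All ddm1 arrays lay below all wild type arrays, with a gap of 0.36, and wild type replicate 3 sat closest to ddm1. The difference was -0.62 ± 0.09 SE, a 1.53-fold fall (95% interval 1.30 to 1.80, limma adjusted p = 0.0179).

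CYP71B28 was the other gene called higher. It had 0.30, 0.49 and 0.56 in ddm1 replicates 1, 2 and 3, against -0.027, 0 and -0.12 in wild type replicates 1, 2 and 3. The groups were apart by 0.30, and ddm1 replicate 1 was the lowest ddm1 array for CYP71B28 as it was for CYP71B22. The difference was 0.50 ± 0.08 SE, or 1.41-fold (95% interval 1.24 to 1.62, limma adjusted p = 0.0190).

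**Figure D2:**
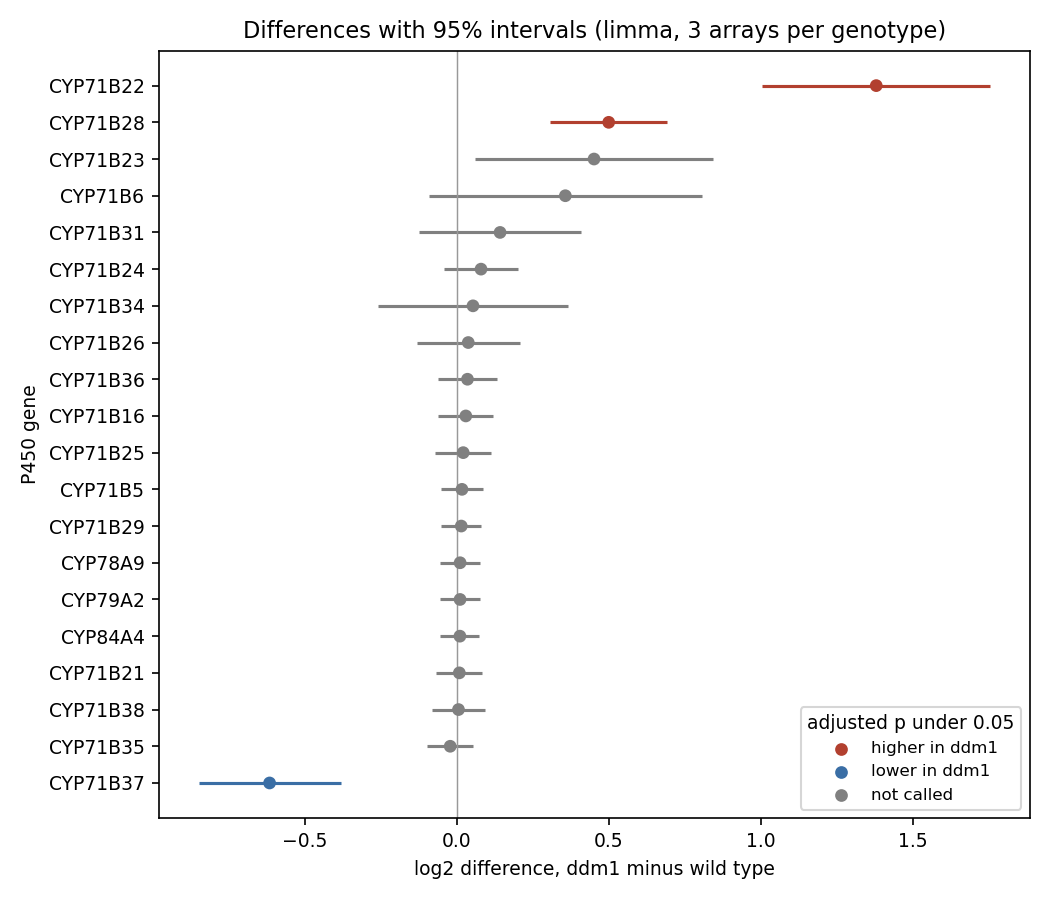
Log2 difference of ddm1 from wild type for each P450 gene (points) with its 95% interval from the limma fit (lines), coloured by call at an adjusted p under 0.05. The intervals of 16 of the 17 genes that were not called include 0, and the exception is CYP71B23 (0.059 to 0.84).

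These calls did not hold in the same number of fits. CYP71B22 kept its call in 12 of 13 other fits without a replicate block, including each of the 6 that left out an array (adjusted p = 0.0128 to 0.0282), and missed it when tested against a change of 1.5-fold instead of 0 (adjusted p = 0.0561). CYP71B37 and CYP71B28 each kept theirs in 7 of the 13, but in only 2 of the 6 that left out an array. Without wild type replicate 1 neither was called (adjusted p = 0.0702 for CYP71B37 and 0.0691 for CYP71B28), nor without wild type replicate 2 (0.0542 and 0.0547) or ddm1 replicate 2 (0.0557 and 0.0624). CYP71B37 also lost its call without ddm1 replicate 1 (0.0544) and CYP71B28 without wild type replicate 3 (0.0655). In the fit without variance moderation the adjusted p was 0.0781 for both, and against a change of 1.5-fold neither passed (adjusted p = 1.0). In all of these fits the direction of the 3 genes was that of the fit to all 6 arrays. For all 3, the kept calls include the fit with array weights, whose estimate stopped before it converged. They also include the filter on SD over the 6 arrays, which a difference between genotypes itself helps a probe set to pass.

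**Figure D3:**
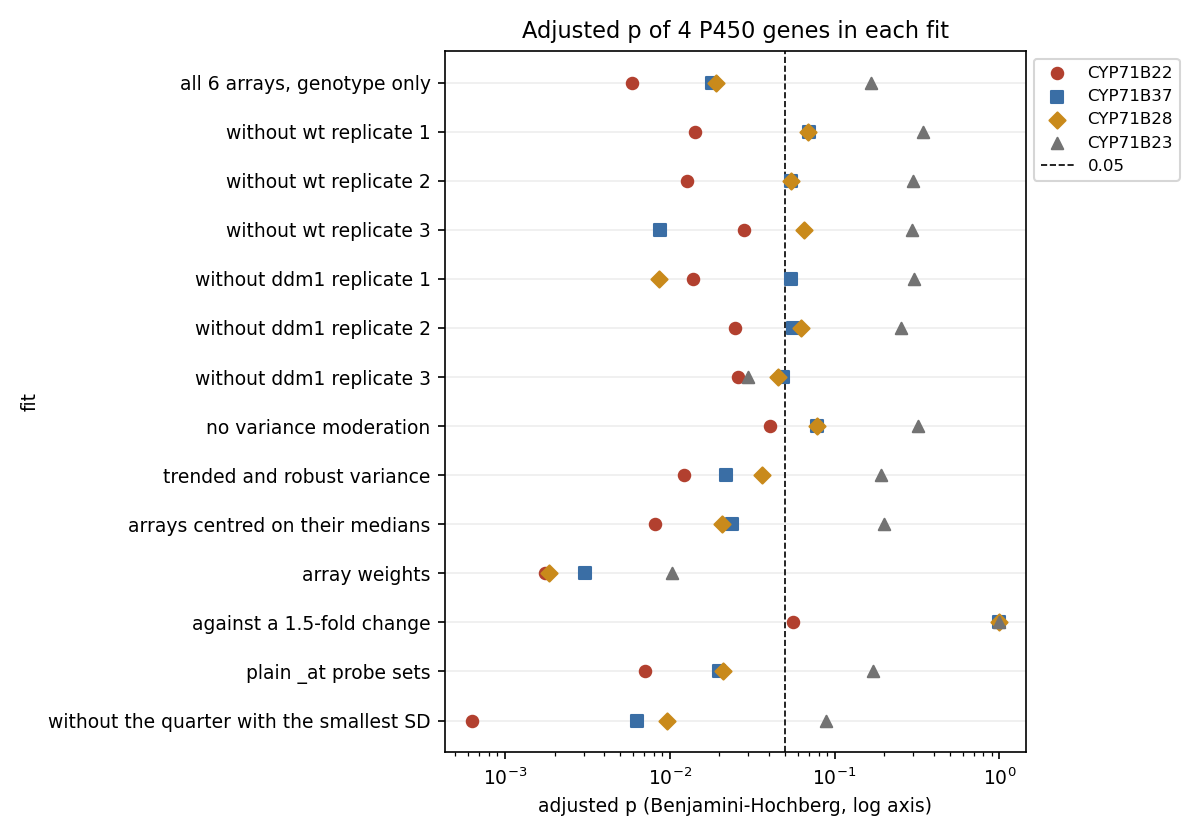
Adjusted p (log axis) of CYP71B22, CYP71B37, CYP71B28 and CYP71B23 in the fit to all 6 arrays and in 13 other fits without a replicate block, with the threshold of 0.05 as a dashed line. CYP71B22 stays left of the line except against a 1.5-fold change, whereas CYP71B37 and CYP71B28 cross it in 6 fits each.

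Another 5 CYP71B genes varied over the arrays without being called. CYP71B23 had 0.47, 0.72 and 0.11 in ddm1 replicates 1, 2 and 3, against -0.036, -0.022 and 0 in wild type replicates 1, 2 and 3. All ddm1 arrays were above all wild type arrays, but the ddm1 arrays were spread with an SD of 0.31, against 0.018 in wild type. The difference was 0.45 ± 0.16 SE (limma adjusted p = 0.167), and CYP71B23 was called without ddm1 replicate 3, its lowest ddm1 array (0.61, adjusted p = 0.0297). It was also called with array weights (0.70, adjusted p = 0.0103).

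CYP71B6, which in Arabidopsis takes part in turning indole-3-acetonitrile into defence-related indole compounds, had 0.51, 0.075 and 0.060 in ddm1 replicates 1, 2 and 3. In wild type replicates 1, 2 and 3 it had -0.42, -0.029 and 0.029. The groups were apart by only 0.031, since the difference came mainly from a high ddm1 replicate 1 and a low wild type replicate 1. The difference was 0.36 ± 0.18 SE (95% interval -0.091 to 0.80, limma adjusted p = 0.310).

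CYP71B31, an enzyme of flowers that oxidises the monoterpene alcohol linalool, had 0.36, -0.017 and 0.026 in ddm1 replicates 1, 2 and 3, against -0.027, -0.030 and 0 in wild type. CYP71B34 had 0.29, -0.19 and 0 in ddm1 and -0.084, 0.0085 and 0.021 in wild type. In both genes ddm1 replicate 1 was the highest array and the groups overlapped. Their differences were 0.14 ± 0.11 SE and 0.053 ± 0.12 SE (limma adjusted p = 0.511 and 0.868). CYP71B26 differed by 0.037 ± 0.067 SE, with ddm1 replicate 3 at 0.19 as its highest array.

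The 8 genes with a range over the 6 arrays of at least 0.2 did not single out the same ddm1 array. Replicate 1 was the highest of all arrays for CYP71B6, CYP71B31 and CYP71B34, replicate 2 for CYP71B23, and replicate 3 for CYP71B22, CYP71B28 and CYP71B26. CYP71B37 was highest in wild type replicate 2. Within the run of neighbouring genes, CYP71B22 and CYP71B23 stand next to each other, and replicate 3 was the highest ddm1 array for CYP71B22 and the lowest for CYP71B23.

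The remaining 12 genes were nearly flat, with a range under 0.2 over the 6 arrays (as in 37.1% of all probe sets). This limit was chosen after the values had been seen. They are CYP71B5, CYP71B16, CYP71B21, CYP71B24, CYP71B25, CYP71B29, CYP71B35, CYP71B36, CYP71B38, CYP78A9, CYP79A2 and CYP84A4. Their differences ran from -0.022 to 0.079, and all their 95% intervals lay between -0.097 and 0.20. The wild type SD of these genes was 0.0068 to 0.036 and the ddm1 SD 0.011 to 0.084. Since the deposited values carry no level, it is unknown whether these transcripts were near background or steadily expressed, and for a transcript near background a fall, or a rise that stays within background, would not show.

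A positive difference was seen in 18 of the 20 genes, against 52.3% of all probe sets. Of these 18 genes, 11 were flat ones, and whether the count differs from the rest of the array was not tested. Without ddm1 replicate 3 the count was 12 of 20, against 39.3% of all probe sets. Of the 12 flat genes, 10 had their highest value in ddm1 replicate 3, and over the 20 genes it was 13 (30.9% of all probe sets). The median of the 20 genes was -0.0022, 0.0086 and 0.048 in ddm1 replicates 1, 2 and 3, against -0.017, 0 and 0.018 in wild type replicates 1, 2 and 3. Over all probe sets the array medians were -0.0064, 0 and 0.017 in ddm1 and 0, 0 and 0.0068 in wild type.

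By family, all 3 calls fell among the 17 CYP71 genes (17.6%, against 9.17% of all probe sets in either direction). The median difference of these 17 genes was 0.035. In CYP71, 4 genes had an unadjusted p under 0.05 (limma), the 3 called genes and CYP71B23, where 23.1% of all probe sets did. Of the 3 genes of other families 0 were called by limma and 0 had an unadjusted p under 0.05. CYP78A9, which promotes the growth of ovules and fruit, differed by 0.010 ± 0.026 SE (95% interval -0.056 to 0.077). CYP79A2, which turns phenylalanine into the oxime that leads to benzylglucosinolate, differed by 0.010 ± 0.027 SE (-0.057 to 0.077). CYP84A4, which acts in the synthesis of arabidopyrones, differed by 0.0099 ± 0.026 SE (-0.054 to 0.074). Whether families differ was not tested, because 3 families are represented by 1 gene each.

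The groups did not overlap for 5 of the 20 genes, against 27.2% of all probe sets. In ddm1 all arrays were higher for CYP71B22, CYP71B23, CYP71B28 and CYP71B6 (10.4% of all probe sets) and lower for CYP71B37 (16.7%). Full separation of 3 arrays from 3 was thus more common over the whole array than a call.

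Most of the P450 genes measured lie in a run of CYP71B genes on chromosome 3. In RefSeq order the run goes from CYP71B16 (AT3G26150) to CYP71B37 (AT3G26330) and spans 25 loci, of which 18 carry a P450 symbol and 2 are typed as pseudogenes. Of these loci 11 have a single-gene probe set, all of them P450 genes. CYP71B22 (AT3G26200) rose, CYP71B37 at the far end fell, and the other 9 were not called. The immediate neighbours of CYP71B22 are CYP71B21, at 0.0079 ± 0.030 SE, and CYP71B23, at 0.45 ± 0.16 SE. CYP71B36, next to CYP71B37, stood at 0.035 ± 0.038 SE, and CYP71B35 beyond it at -0.022 ± 0.030 SE.

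**Figure D4:**
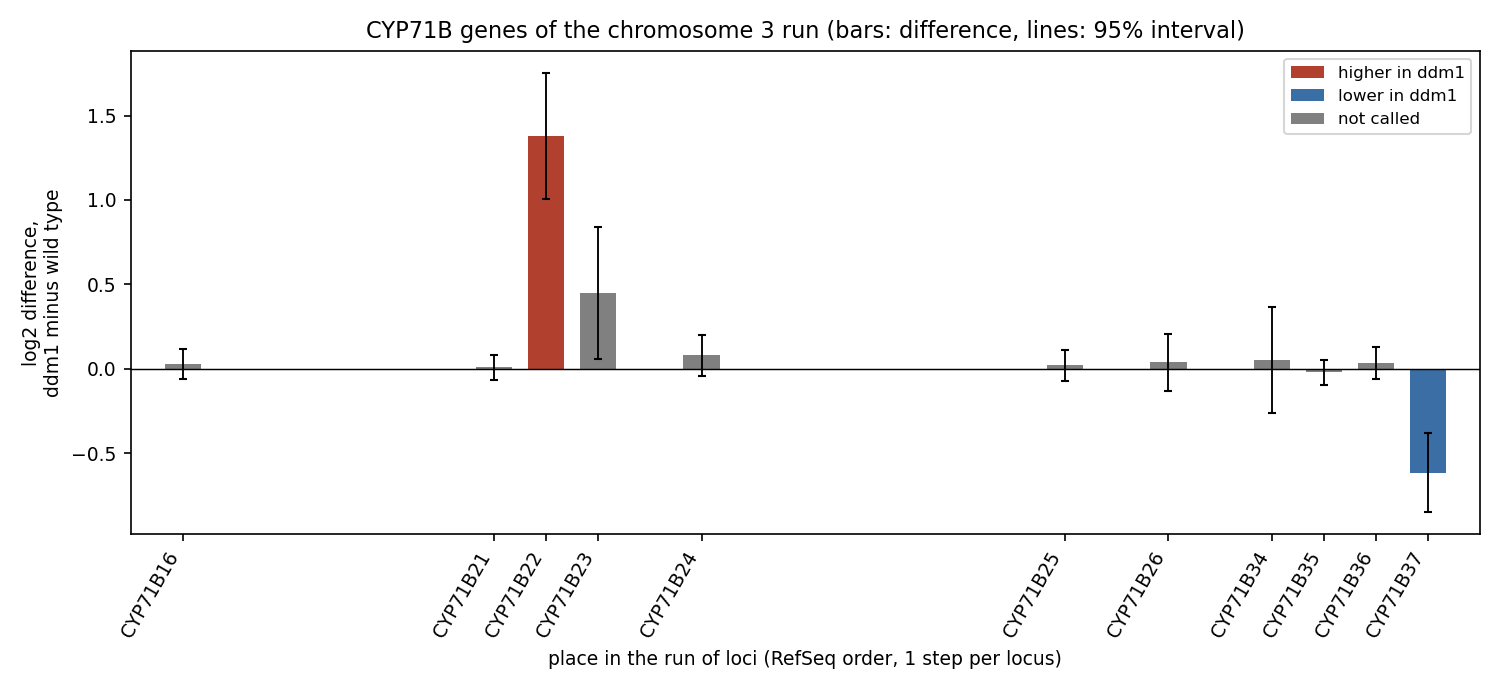
Log2 difference of ddm1 from wild type (bars) with the 95% interval (lines) for the 11 measured CYP71B genes of the chromosome 3 run, placed by their order among its 25 loci. CYP71B22 rises by 1.38 and CYP71B37 falls by 0.62, while the intervals of CYP71B21 and CYP71B36 beside them include 0 and that of CYP71B23, on the other side of CYP71B22, does not (0.059 to 0.84, not called).

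The second called rise, CYP71B28 (AT1G13090), lies on chromosome 1 directly beside CYP71B29, which stood at 0.014 ± 0.026 SE. CYP71B27, a transcribed pseudogene 3 loci to the other side and outside the 20 genes, stood at 0.0088 ± 0.025 SE. Of the 3 nearest measured loci on each side of CYP71B28, 1 was called, AT1G13160 at 9 loci away, and it was lower (-0.26 ± 0.03 SE, limma adjusted p = 0.0113). None of the 6 nearest measured loci of CYP71B22 or of the 6 of CYP71B37 was called. The closest to a call was AT3G26140, 9 loci before CYP71B22, at 0.72 ± 0.16 SE (limma adjusted p = 0.0541). The 2 P450 genes of the third short run, CYP71B5 and CYP71B31, were not called either.

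Transposon-rich surroundings were measured as the share of pseudogene-type loci, the RefSeq class that takes in transposable element genes, in windows of 25 loci centred on each gene. The share was 0% around CYP71B28 and 8% around CYP71B22 and CYP71B37. It was 8% as well around CYP71B21 and CYP71B36, which were not called. The highest share was 20%, around CYP71B38, which differed by 0.0051 ± 0.034 SE.

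Outside the naming rule, single-gene probe sets with a CYP symbol were looked up where a RefSeq synonym contained P450, and none was called. Probe sets of P450 genes with other names or without such a synonym were not searched for in this way. CYP71B30P, CYP718 and the transcribed pseudogenes CYP71B27 and CYP51G2 differed by 0.0058 to 0.025 (limma adjusted p = 0.661 to 0.915). A further 2 probe sets that list a P450 gene together with another gene were left out.

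Partners of P450 enzymes were looked up in 16 pathway lists with 152 other genes, of which 7 had a single-gene probe set. Of these 7, 2 were lower and 0 higher, against 5.68% and 3.5% of all probe sets. They were SHT, whose enzyme builds the spermidine phenolamides of the pollen coat (-0.81 ± 0.04 SE, limma adjusted p = 0.0003), and AMS, a regulator of the tapetum and of pollen wall genes (-1.23 ± 0.08 SE, adjusted p = 0.00099). The P450 genes of both pathways, CYP98A8, CYP98A9, CYP703A2 and CYP704B1, were not analysed here. In the glucosinolate list, beside CYP79A2, BCAT4 of methionine side chain elongation stood at -1.93 ± 1.05 SE and the glucosyltransferase UGT74B1 at -0.32 ± 0.09 SE, and neither was called (adjusted p = 0.347 and 0.114). DFR and HCT of the flavonoid and phenylpropanoid list stood at 0.0063 ± 0.027 SE and -0.0054 ± 0.10 SE, and the carotenoid cyclase LYC at 0.10 ± 0.06 SE. None of the listed reductase and cytochrome b5 genes that feed electrons to P450 enzymes, and none of the genes listed for cutin, brassinosteroid, gibberellin, jasmonate, abscisic acid, cytokinin or sterol pathways, was analysed here.

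Some markers of bud cell types were called, mostly pollen genes. Of 10 measured pollen genes 4 were lower and 0 higher, against 5.68% and 3.5% of all probe sets. An unadjusted p under 0.05 (limma) was seen in 5 of the 10, against 23.1% of all probe sets. The mean value of the 10 genes ran from -0.84 to -0.65 over the ddm1 arrays, against 0.016 to 0.086 over the wild type arrays. Their median difference was -0.38, and the sugar transporter gene SWEET5, at -3.61 ± 0.36 SE, weighed most in the mean. Of the pollen genes not called, AGL104 stood at -0.72 and AGL65 at -0.10, while ACT11, ANX1, AGL94 and ANX2 ran from -0.0086 to 0.031. Of 3 tapetum genes 1 was lower, AMS, the gene already counted among the partners (list mean -0.71 to -0.50 in ddm1, against 0.0083 to 0.29 in wild type). Counting AMS, 2 of the 3 had an unadjusted p under 0.05. Of 3 green tissue genes 1 was higher (list mean 0.17 to 0.28 in ddm1, against -0.12 to -0.044 in wild type), and all 3 had an unadjusted p under 0.05. Of 2 carpel and ovule genes 0 were called by limma and 1, SPT, had an unadjusted p under 0.05 (0.29 ± 0.10 SE), and of 3 meiosis genes 0 were called and 0 had an unadjusted p under 0.05. The centred values do not show whether any marker is absent, and the part of these cell types in the P450 differences was not tested.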

How the data were processed

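Per the submitters' processing notes the authors used GCRMA (version not stated). The deposited table holds log2 values taken relative to a baseline for each probe set. The samples of that baseline are unknown, and the log base and the centring were inferred from the values. GCRMA compresses dim signals, and no level, detection call, scan date or slide was used. Precision is limited by 3 arrays per genotype, and no pair of arrays held identical values.

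Controls (64 probe sets) were removed, which left 22746. The array annotation names 1 gene for 13513 and several for 503, and 8730 are unnamed here. Of the single-gene probe sets, 13436 matched by gene number a gene in RefSeq's table of assembly TAIR10.1. Since the array's own build is not stated, RefSeq gave names and locus order only.

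The comparison of genotypes used limma 3.58.1 under R 4.3.3 (lmFit and eBayes, genotype alone in the model), two-sided, with Benjamini-Hochberg adjustment. The fit was tested on simulated data. Counts and figures used Python 3.11.15, pandas 2.3.3 and matplotlib 3.10.9. The text names every P450 gene of the rule, called partners and some called markers of the lists. Chosen after their values were seen were the partners and the markers that were not called. So were the neighbouring loci and the P450 probe sets outside the rule. The genes and the 21 lists were chosen with earlier results of these data known, and no set test was run. Alternatives were leaving out each array, a replicate block, other variance models, array centring and weights, a 1.5-fold threshold and 2 filters.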

Additional observations from a re-analysis of the deposited data

How the results depend on the processing

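All alternatives were planned. No P450 gene turned direction past the threshold under any of them. Of 269 values of single P450 genes under an alternative, 251 stayed on the same side of 0.05, while a call was lost in 15 and gained in 3. The filter that left out the 25% of probe sets with the smallest SD kept 9 of the 20 P450 genes. It replaced a filter on dim probe sets, which the centred values do not allow.

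Of the P450 genes, 2 were higher and 1 lower in the fit to all arrays. Without variance moderation 1 was higher and 0 lower (all probe sets, 373 and 429), and against a 1.5-fold change 0 and 0 (282 and 213), where the higher bar is the reason. With array weights 4 were higher (all probe sets, 2185 higher and 3597 lower), CYP71B23 and CYP71B24 being added, and that estimate of weights stopped before it converged. Fits that left out an array gave 1 to 3 higher and 0 to 1 lower P450 genes, and 432 to 788 higher and 629 to 1011 lower of all probe sets, with fewer arrays in each fit. For shifts with no stated reason the cause was not tested.

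The labels do not say that a replicate number marks a shared batch. Over all probe sets, deviations from the group means correlated between same-numbered arrays at 0.0752 (replicate 1), 0.0900 (replicate 2) and 0.0159 (replicate 3). Between arrays of different numbers the correlation was -0.0907 to 0.0229. Over the P450 genes alone, same-numbered arrays correlated at -0.208, -0.141 and -0.272 (replicates 1, 2 and 3). Arrays of different numbers correlated at -0.098 to 0.308 over these genes. With 3 arrays per genotype these correlations cannot decide whether the numbers pair the arrays. The numbers were left out of the model because the labels state no pairing. Over all probe sets, wild type replicates 1 and 2 correlated best with the ddm1 array of their own number, and wild type replicate 3 with ddm1 replicate 1. With a replicate block 1 P450 gene was higher and 0 were lower (all probe sets, 433 and 553). CYP71B22 was called with it (adjusted p = 0.0179), and CYP71B28 and CYP71B37 were not (0.0881 and 0.0950). Signal over background is unknown.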
